A study of Homo sapiens with 13 samples.

Results

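The genes of the translation initiation complex eIF4F and of the proteins that help or restrain its helicase were followed through ribosome profiling of MDA-MB-231 cells. They were chosen by name for their known roles. The 10 genes were *EIF4A1*, *EIF4A2* and *EIF4A3* (DEAD-box helicases), *EIF4E* (the cap-binding subunit), *EIF4G1*, *EIF4G2* and *EIF4G3* (scaffolds), *EIF4B* and *EIF4H* (helicase cofactors) and *PDCD4* (an inhibitor of eIF4A). All 10 were among the 24875 gene symbols of the Silvestrol table and the 13121 of the INK128 table, and all 10 were among the 10588 genes that passed the minimum level and were tested.

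MDA-MB-231 is a human breast carcinoma line of mesenchymal, triple-negative type. Ribosome footprints (RFs) were sequenced from 7 libraries of the Silvestrol experiment, namely untreated cells, a culture with vehicle (DMSO) and one with 25 nM Silvestrol after 1 h, and such a pair from each of passages 3 and 4 after 2 h. mRNA was sequenced from 1 DMSO and 1 Silvestrol culture at 2 h, and a separate experiment compared RFs and total RNA between vehicle and 200 nM INK128 after 2 h, with 1 library for each. All cells other than the passage 4 pair were at passage 3, every control but the untreated cells carried the DMSO vehicle, and the labels name no genetic change. One label field of the passage 3 Silvestrol RF library at 2 h reads 1 h, and one of the DMSO mRNA library reads untreated, and both libraries were placed by their titles and descriptions. RF libraries held 2652423 to 31188148 counted reads, the passage 4 pair being the shallowest at 6446356 (DMSO) and 2652423 (Silvestrol), and the mRNA libraries held 24792922 and 50315607. In mRNA the line's markers *VIM*, *CD44*, *EGFR* and *CAV1* stood at 28.6 to 1460 RPKM (reads scaled to the length counted and to the library's size), *ESR1* had 0 reads, *PGR* had 1 and 2, *CDH1* 17 and 26, *PTPRC* 9 and 12 and *ALB* 0 and 2, while *EPCAM*, which was expected low, stood at 4.2 and 6.47 RPKM.

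eIF4F brings ribosomes to capped mRNAs. eIF4E holds the cap, an eIF4G scaffold ties it to eIF3 on the small ribosomal subunit and to poly(A)-binding protein, and eIF4A unwinds structure in the 5′ UTR with help from eIF4B or eIF4H. PDCD4 binds eIF4A and keeps it from the scaffold, Silvestrol is a natural product that targets eIF4A, and INK128 inhibits the kinase mTOR, which acts on eIF4E through the 4E-BP proteins. EIF4A1 and EIF4A2 are the initiation helicases, whereas EIF4A3 belongs to the exon junction complex that marks spliced mRNAs, and EIF4G2 (also called DAP5) lacks the eIF4E-binding site of the other scaffolds.

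The helicases differ in how well a short footprint can be told from other places in the genome, which bears on every value below. The 30 bases around the DEAD motif that names the family are shown because footprints are about this long, with capitals in *EIF4A2* and *EIF4A3* where a base differs from *EIF4A1* (5 bases each). The windows lie in coding exons at chr17:7480394-7480423 (*EIF4A1*, plus strand), chr3:186503973-186504002 (*EIF4A2*, plus strand) and chr17:78113476-78113505 (*EIF4A3*, minus strand) of GRCh37, the build the authors called hg19.
EIF4A1: tttgtactggatgaagctgacgaaatgtta
EIF4A2: tttgtTTtggatgaagcAgaTgaaatgttG
EIF4A3: ttGgtTTtggatgaagctgaTgaaatgttG
Both paralogs differed from *EIF4A1* here by more than the 2 mismatches the authors' alignment allowed, whereas *EIF4A2* and *EIF4A3* differed from each other by 2 bases, which is within that limit. Over the whole coding sequence *EIF4A1* was 77.3% identical to *EIF4A2* and 67.1% to *EIF4A3*. Processed pseudogenes were closer. *EIF4A1* (chr17:7476143-7482324) had 9 copies covering at least 50% of its coding sequence, the nearest being *EIF4A1P10* on chromosome X with 97.0% identity, and 6 places elsewhere in the genome matched the *EIF4A1* window above with at most 2 mismatches. In all, 97.6% of the 30-base windows of the *EIF4A1* coding sequence matched elsewhere with at most 2 mismatches. The share was 100% for *EIF4E* (4 copies, the nearest *EIF4EP2* at 99.4% identity) and for *EIF4B* (8 copies, the nearest *EIF4BP6* at 97.7%), 85.3% for *EIF4A2* (4 copies) and 85.7% for *EIF4H* (1 copy). It was 3.5% for *EIF4A3* (1 copy), 1.4% for *EIF4G1*, 0.7% for *EIF4G3*, 0.4% for *PDCD4* and 0.0% for *EIF4G2*.

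The deposited counts hold uniquely mapped reads, and the deposited RPKM values leave out positions with non-unique reads. Reads divided by RPKM give the length over which a gene was counted, expressed here as a percent of the coding length with the median gene at 100%. In the passage 3 DMSO library at 2 h this counted length was 12.8% for *EIF4A1*, 19.2% for *EIF4H*, 24.9% for *EIF4B*, 33.5% for *EIF4A2* and 36.2% for *EIF4E*, under 50% for 5 of the 10 genes and for 6.23% of 9088 genes with an annotated length. The other 5 genes stood at 92.8 to 101.4% in all 7 RF libraries. For the 5 genes under 50% in that DMSO library the counted length was longest in the shallowest library in every case. In passage 4 with Silvestrol it was, for example, 53.5% for *EIF4A2*, 57.8% for *EIF4B* and 66.6% for *EIF4E*, and 2 of the 10 genes stayed under 50%. Their RF values come from part of the coding sequence, with 191 to 859 reads for *EIF4A1*, 280 to 1747 for *EIF4A2*, 35 to 275 for *EIF4H*, 9 to 20 for *EIF4B* and 1 to 7 for *EIF4E*, and their part in the changes given below was not tested beyond the offset for counted length that is named where it alters a call.

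**Figure D1:**
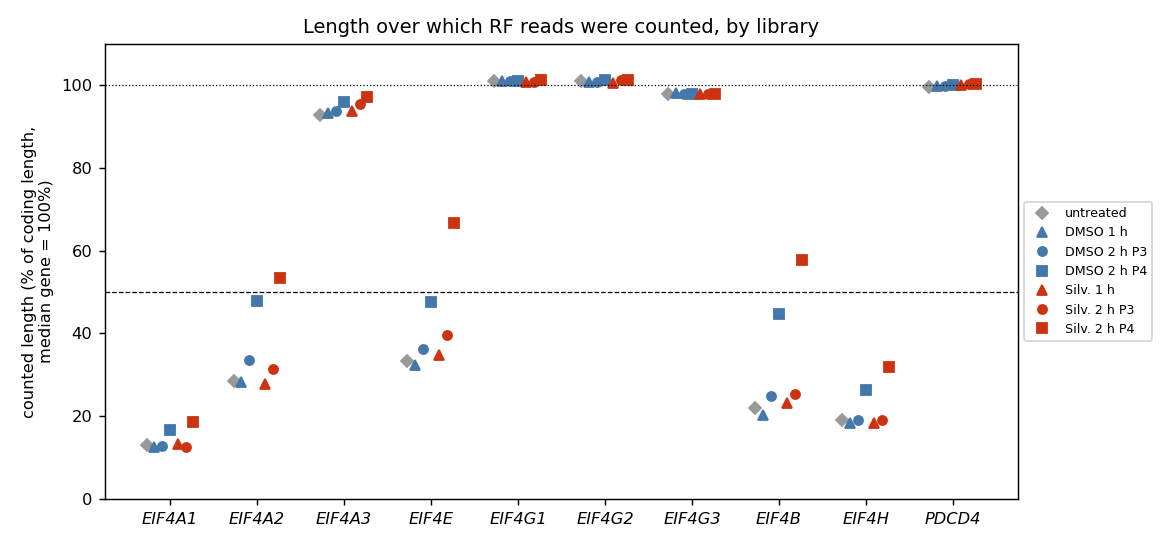
Counted length (reads over RPKM, as a percent of the coding length, median gene at 100%) of the 10 genes in the 7 RF libraries, 1 point a library. *EIF4A1*, *EIF4A2*, *EIF4E*, *EIF4B* and *EIF4H* lie mostly under the dashed 50% line and highest in the passage 4 libraries (squares), and the other 5 genes lie between 92.8 and 101.4%.

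With Silvestrol the clearest changes were losses of footprints on *PDCD4*, by 3.61-fold at 2 h, and on *EIF4A3*, by 1.8-fold. Both passed edgeR's quasi-likelihood test (2 DMSO against 2 Silvestrol RF libraries, Benjamini-Hochberg adjusted p = 0.015 and 0.032). Neither passed without the passage 3 Silvestrol library (*PDCD4* log2 change -2.01, adjusted p = 0.14, and *EIF4A3* -0.93, 0.2) or without that of passage 4 (-1.75, 0.088, and -0.79, 0.17), and in both of these edgeR fits 0.0% of all genes were called. These 2 of the 10 genes were called lower and 0 higher, against 7.52% of all genes tested called lower and 2.1% called higher. With the culture passage as a block the test also called *EIF4G2* and *EIF4G3* lower and *EIF4A1*, *EIF4A2* and *EIF4B* higher, 4 and 3 of the 10 genes, against 28.0% and 24.6% of all genes. The median log2 RF change of the 10 genes was 0.01, beside -0.02 over all genes tested. Values are relative to each library's total, and in these bulk libraries fewer cells making a transcript and fewer footprints per cell cannot be told apart.

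**Figure D2:**
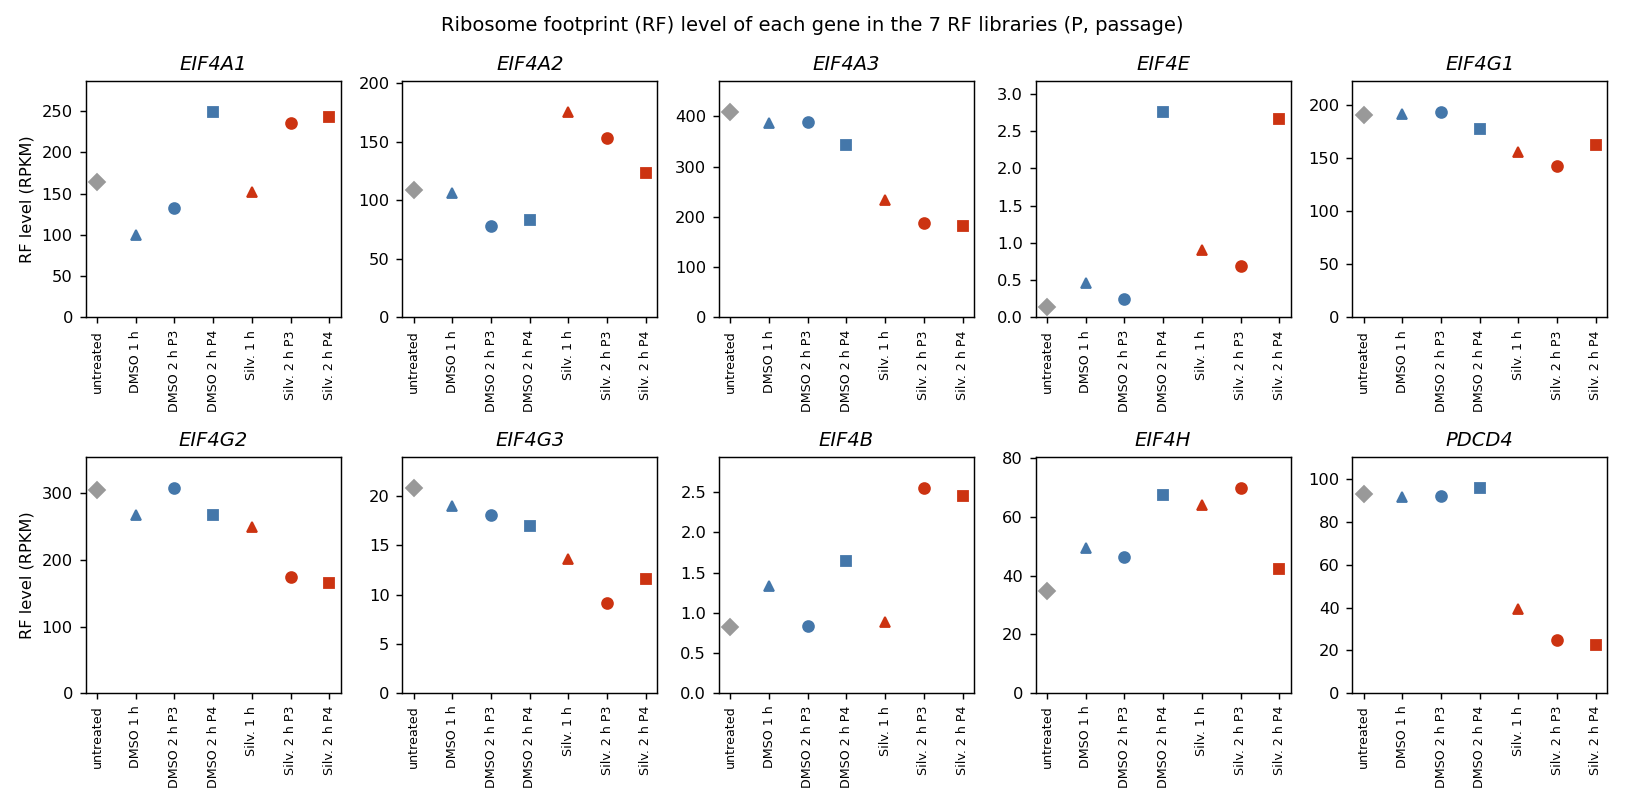
RF level (RPKM) of each gene in the 7 RF libraries, with 1 point a library, grey for untreated, blue for DMSO and red for Silvestrol. *PDCD4* and *EIF4A3* are lower in every Silvestrol library than in every control, *EIF4A2* is higher in every Silvestrol library, and *EIF4A1* spans 99.9 to 249 RPKM among the controls alone.

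*EIF4A1*, the main initiation helicase, had RF levels of 164 RPKM in untreated cells, 99.9 with DMSO for 1 h, and 133 (passage 3) and 249 (passage 4) with DMSO for 2 h. With Silvestrol it had 151 RPKM at 1 h, and 235 and 243 at 2 h. Silvestrol was higher than DMSO in both passage 3 pairs and level with it in passage 4, and the controls alone spread by 2.49-fold. The log2 RF change at 2 h was 0.49 with a standard error of 0.43 (edgeR quasi-likelihood test, adjusted p = 0.48). With the passage as a block it was 0.63 ± 0.14 (SE, adjusted p = 3.6e-05, edgeR). Without the passage 3 DMSO library it was -0.01, and without that of passage 4 it was 1.19. mRNA levels were 47.7 RPKM with DMSO and 46.2 with Silvestrol, 1 library each.

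*EIF4A2*, the second initiation helicase, had RF levels of 109 RPKM in untreated cells, 106 with DMSO at 1 h, and 77.9 and 83.4 with DMSO at 2 h. Silvestrol gave 176 RPKM at 1 h, and 153 and 124 at 2 h, so that the lowest Silvestrol library lay above the highest control. The log2 RF change at 2 h was 0.92 ± 0.25 (SE, adjusted p = 0.077, edgeR quasi-likelihood test), and the test's call depended on the fit, with an adjusted p of 0.043 under an offset for the counted length and 3.9e-12 with the passage as a block. mRNA levels were 117 and 114 RPKM. At 1 h the DMSO library held 1483 *EIF4A2* reads and the Silvestrol library, the smaller of the pair, held 1747.

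*EIF4A3*, the exon junction helicase, moved the other way. Its RF levels were 409 RPKM in untreated cells, 386 with DMSO at 1 h, and 389 and 343 with DMSO at 2 h, then 234 with Silvestrol at 1 h, and 187 and 181 at 2 h. The 3 Silvestrol libraries all lay below the 4 controls, and the controls spread by only 1.19-fold. The log2 RF change at 2 h was -0.84 ± 0.14 (SE, adjusted p = 0.032, edgeR quasi-likelihood test) and it passed at 2.2e-18 with the passage as a block. mRNA levels were 121 RPKM with DMSO and 112 with Silvestrol. *EIF4A3* thus ran against *EIF4A2* in each of the 3 pairs of libraries, with a log2 change of -0.72 against 0.73 at 1 h, -1.06 against 0.97 at 2 h in passage 3, and -0.92 against 0.57 in passage 4.

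*EIF4E* could not be followed in RFs. The 7 RF libraries held 1 read (untreated), 4 (DMSO at 1 h), 6 (Silvestrol at 1 h), 2 and 7 (DMSO at 2 h) and 3 and 4 (Silvestrol at 2 h). The RPKM ratio of Silvestrol to DMSO was 2.8 in passage 3, with a 95% exact interval from 0.32 to 33.5 for counting error only, and 0.966 in passage 4 (0.207 to 3.8). A change of its footprints was not detectable at this depth (log2 change 0.62 ± 1.63 SE, adjusted p = 0.83, edgeR). Its mRNA was better covered, with 286 reads (2.06 RPKM) for DMSO and 393 reads (5.72 RPKM) for Silvestrol, a ratio of 2.77 (2.37 to 3.24, counting error only, 1 library each).

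The scaffolds all had lower mean RF levels with Silvestrol at 2 h, but 0 of the 3 passed the test without the block, and differences between them were not tested. *EIF4G1*, the main scaffold, had RF levels of 190 RPKM in untreated cells, 192 with DMSO at 1 h, 194 and 178 with DMSO at 2 h, 156 with Silvestrol at 1 h, and 143 and 163 with Silvestrol at 2 h. The groups did not overlap, but the log2 change of -0.16 ± 0.13 (SE) did not pass (edgeR, adjusted p = 0.43, or 0.085 under the passage block). Of all genes tested, 60.4% had RF levels that did not overlap between the DMSO and Silvestrol libraries at 2 h, as did 7 of these 10 genes.

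*EIF4G2*, the scaffold without an eIF4E site, had 305 RPKM in untreated cells, 267 with DMSO at 1 h and 309 and 268 at 2 h, and with Silvestrol 250 RPKM at 1 h and 174 and 165 at 2 h. The 1 h Silvestrol library lay close to the controls and the 2 h libraries lay well below them. Its log2 change at 2 h was -0.64 ± 0.15 (SE, adjusted p = 0.057, edgeR quasi-likelihood test), and 1.4e-12 with the passage as a block. It also passed with DESeq2 (0.045) and under the offset for the counted length (0.048). *EIF4G3*, a less abundant relative of *EIF4G1* (67.9% identical in coding sequence), had 20.9, 19.02, 18.1 and 16.9 RPKM in the untreated, DMSO 1 h and DMSO 2 h libraries, and 13.7, 9.10 and 11.6 RPKM with Silvestrol at 1 h and 2 h. All Silvestrol values lay below all controls, and the log2 change at 2 h was -0.65 ± 0.16 (SE, adjusted p = 0.067, and 3.1e-07 with the block, edgeR). Scaffold mRNA was higher with Silvestrol in each case, from 161 to 174 RPKM for *EIF4G1*, from 211 to 261 for *EIF4G2* and from 12.2 to 16.3 for *EIF4G3*, all under 1.5-fold.

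The cofactors were thinly covered. *EIF4B*, which stimulates eIF4A, had RF levels of 0.82 RPKM in untreated cells, 1.33 with DMSO and 0.882 with Silvestrol at 1 h, 0.831 and 1.64 with DMSO at 2 h, and 2.56 and 2.45 with Silvestrol at 2 h. The 2 h Silvestrol libraries held 20 and 9 reads, and the DMSO libraries 13 and 11. The ratio was 3.08 in passage 3 (95% exact interval 1.46 to 6.74, counting error only) and 1.49 in passage 4 (0.547 to 3.97). The log2 change of 1.33 ± 0.81 (SE) did not pass (adjusted p = 0.33, and 0.019 with the block, edgeR). With 1 RF library left out this change ranged from 0.44 to 2.2. *EIF4H*, which acts on eIF4A much as eIF4B does, had 34.9 RPKM in untreated cells, 49.5 with DMSO at 1 h, 46.3 and 67.4 with DMSO at 2 h, 64.1 with Silvestrol at 1 h, and 70.1 and 42.4 at 2 h. The passages moved in opposite directions, and the log2 change was 0.19 ± 0.37 (SE, adjusted p = 0.77, edgeR).

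*PDCD4* (chr10:112631686-112659764), the inhibitor, had the largest fitted change of the 10 genes. Its RF level was 93.1 RPKM in untreated cells, 91.6 with DMSO at 1 h, and 92.4 and 96.1 with DMSO at 2 h, a spread of 1.05-fold over 4 controls. With Silvestrol it was 39.3 RPKM at 1 h, and 24.8 (passage 3) and 22.5 (passage 4) at 2 h, counted from 588 and 110 reads where the matching DMSO libraries gave 4451 and 1108. The 2 h levels averaged 94.25 ± 2.64 RPKM with DMSO and 23.65 ± 1.62 with Silvestrol (SD, n = 2). The log2 RF change was -1.85 ± 0.15 (SE, adjusted p = 0.015, edgeR quasi-likelihood test), lower than that of all but 1.3% of the genes tested, and 1.2e-47 with the passage as a block. Its mRNA went the other way, from 7.72 RPKM (1728 reads) to 14.4 RPKM (1642 reads of a smaller library), a log2 change of 0.90 that exceeded that of 93.1% of genes, with 1 library each.

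**Figure D3:**
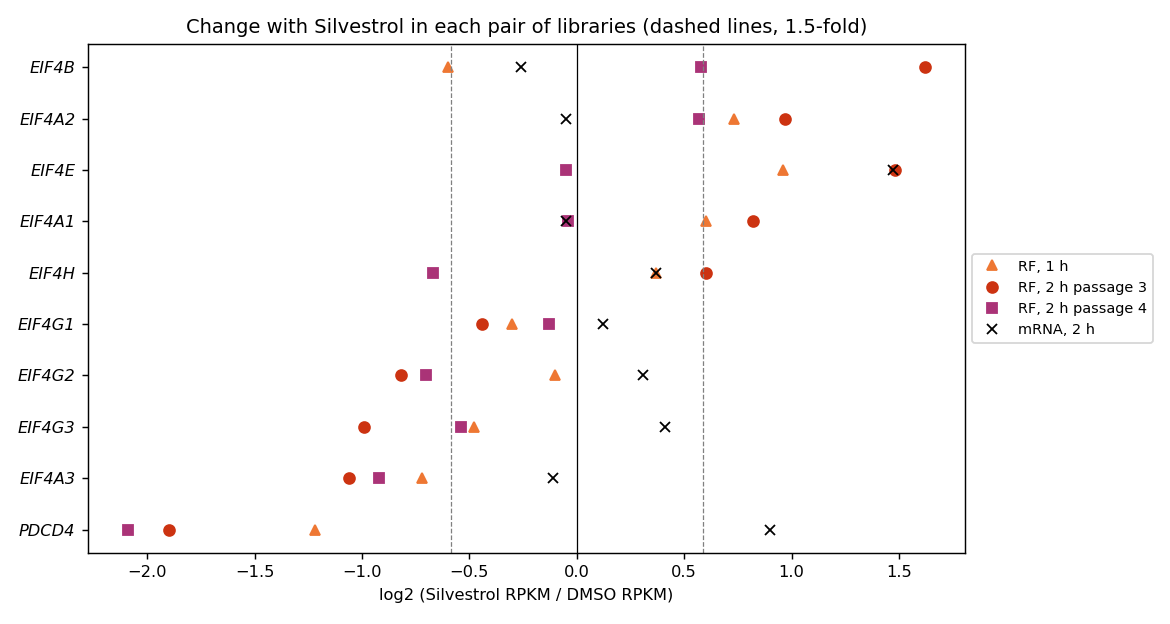
Log2 ratio of Silvestrol to DMSO RPKM for each gene in 4 pairs of libraries (RFs at 1 h, RFs at 2 h in passages 3 and 4, and mRNA at 2 h), ordered by the edgeR RF change, with dashed lines at 1.5-fold. The 3 RF points of *PDCD4* lie at -1.22, -1.9 and -2.09 and its mRNA at 0.9, and *EIF4A1*, *EIF4E*, *EIF4H* and *EIF4B* have RF points on both sides of 0.

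The 1 h libraries (1 each, no test) held changes of at least 1.5-fold for 6 of the 10 genes. Lower were *EIF4A3*, *EIF4B* (11 against 20 reads) and *PDCD4*, 3 of 10 beside 21.8% of all genes, and higher were *EIF4A1*, *EIF4A2* and *EIF4E* (6 against 4 reads), 3 of 10 beside 1.68%. Under a pseudocount of 0.5 RPKM *EIF4B* (-0.41) and *EIF4E* (0.54) were no longer past 1.5-fold, and neither was *EIF4B* (-0.27) with reads per library total. Untreated cells differed from the same DMSO library by 0.71 for *EIF4A1* and by -0.7 for *EIF4B*, beside Silvestrol values of 0.6 and -0.6, and by 0.03 for *EIF4A2*, beside 0.73. The RPKM values of *PDCD4*, *EIF4A3*, *EIF4G1*, *EIF4G2* and *EIF4G3* stood lower with Silvestrol at 1 h and, in passage 3, further below DMSO at 2 h. For *EIF4G2* the 1 h value of -0.1 lay above the median of all genes (-0.18) and turned to 0.02 with reads per library total. The log2 change went from -1.22 to -1.9 for *PDCD4*, from -0.72 to -1.06 for *EIF4A3*, from -0.3 to -0.44 for *EIF4G1*, from -0.1 to -0.82 for *EIF4G2* and from -0.48 to -0.99 for *EIF4G3*. In passage 4 the 2 h values were -2.09 for *PDCD4*, -0.92 for *EIF4A3* and -0.7 for *EIF4G2*, but -0.54 for *EIF4G3* and -0.13 for *EIF4G1*, the last nearer to 0 than at 1 h. Whether the times differ was not tested, and each time had its own DMSO library.

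Libraries without drug were compared in the same way. Between untreated cells and the passage 3 DMSO culture at 2 h, only *EIF4E* (1 and 2 reads) differed by 1.5-fold or more among the 10 genes, being lower, and 0 were higher, against 2.07% of genes lower and 2.11% higher. *PDCD4*, *EIF4G1*, *EIF4G2*, *EIF4B* and *EIF4A3* differed by log2 values of -0.03 to 0.07, *EIF4G3* by 0.21, *EIF4A1* by 0.3, *EIF4H* by -0.41 and *EIF4A2* by 0.48. Between the DMSO cultures of passages 3 and 4, *EIF4E* differed by 3.48 (2 and 7 reads), *EIF4B* by 0.98, *EIF4A1* by 0.90 and *EIF4H* by 0.54. The other 6 genes differed by -0.2 (*EIF4G2*) to 0.1 (*EIF4A2*). For *EIF4A1* and *EIF4E* this difference was larger than any of their Silvestrol changes.

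In mRNA, changes of at least 1.5-fold were seen for *EIF4E* and *PDCD4*, both higher with Silvestrol, 2 of 10 beside 18.3% of all genes. Lower were 0 of 10 beside 11.8%. With reads per library total *EIF4H* was also past 1.5-fold, at a log2 change of 0.62 in place of 0.37. The mRNA counted length with DMSO, as a percent of the transcript length, was 9.0% for *EIF4H*, 25.3% for *EIF4B*, 26.5% for *EIF4A2* and 49.8% for *EIF4A1*. These were 4 of 10 under 50%, beside 12.7% of genes, so their mRNA and TE values come from part of the transcript. Translation efficiency (TE), the RF level divided by the mRNA level in RPKM, was 12.0 for *PDCD4* with DMSO and 1.72 with Silvestrol in passage 3, the highest of the 10 genes before treatment. For *EIF4A3* it was 3.22 and 1.67, for *EIF4G2* 1.47 and 0.668, for *EIF4G3* 1.47 and 0.559 and for *EIF4G1* 1.2 and 0.817. For *EIF4A2* it was 0.665 and 1.35, and for *EIF4A1* 2.79 and 5.09, while the same mRNA libraries with passage 4 RFs gave log2 TE changes of 0.61 and 0.01.

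A z-score of the TE change was taken over the 10588 genes tested, with the study's thresholds of -1.5 and 1.5. The study made its calls in a smaller set of genes under its own limits, so the scales need not match. The score of *PDCD4* was -2.5 with passage 3 RFs and -2.8 with passage 4 RFs, lower than in all but 0.9% and 0.6% of genes. *EIF4B* was past the upper threshold in passage 3 (2.22) but not in passage 4 (1.18), on the few reads given above. That made 1 of 10 lower beside 6.46% of all genes, and 1 of 10 higher beside 4.67%. The z-scores of the other 8 genes lay between -1.09 (*EIF4G3*) and 1.35 (*EIF4A2*) in passage 3.

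In edgeR's test of the interaction of assay and treatment, 0 of the 10 genes had an adjusted p under 0.05, and 0.0189% of all genes were called lower and 0.0% higher. At an unadjusted p under 0.05 there were 3 of the 10 (*EIF4G2*, *EIF4G3* and *PDCD4*), beside 24.3% of all genes. DESeq2 called *PDCD4* lower, 1 of the 10, and 0 higher, beside 4.88% and 3.4% of all genes. The log2 TE change of *PDCD4* was -2.62 ± 0.30 (SE, adjusted p = 0.074), that of *EIF4G3* -0.93 ± 0.26 and that of *EIF4G2* -0.82 ± 0.30. With the passage as a block *PDCD4* (adjusted p = 2.1e-05), *EIF4G2* (0.0022), *EIF4G3* (0.0031) and *EIF4A3* (0.011) were called lower and *EIF4A2* (0.0017) and *EIF4A1* (0.048) higher, 4 and 2 of 10 beside 21.8% and 21.9% of all genes. The mRNA arm had 1 library per treatment, so only RF libraries gave a spread.

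The 10 genes also parted by the length of their annotated 5′ UTR. In the MANE Select transcripts it had 17 bases in *EIF4A1*, 21 in *EIF4E*, 28 in *EIF4B*, 28 in *EIF4H* and 34 in *EIF4A2*, and 153 in *PDCD4*, 160 in *EIF4G1*, 167 in *EIF4A3*, 308 in *EIF4G2* and 631 in *EIF4G3*, against a median of 134 over 9087 tested genes. The 5 genes with at most 34 bases had fitted log2 RF changes above 0 (0.19 to 1.33). Of these, 0 passed in edgeR's main test of the 4 RF libraries at 2 h without the block. *EIF4A2* passed with DESeq2, the counted-length offset or no minimum values (adjusted p of 0.011, 0.043 and 0.045). In passage 4 alone the log2 RPKM ratio was below 0 for *EIF4A1* (-0.04), *EIF4E* (-0.05, on 4 and 7 reads) and *EIF4H* (-0.67). Without the passage 3 DMSO library the fitted changes of these genes were -0.01, -0.9 and -0.22. The 5 genes with at least 153 bases had changes below 0 (-1.85 to -0.16). Over all genes tested, 89.5% of the 1129 with at most 34 bases had a fitted RF change above 0 (median log2 change 0.47), and 24.4% of the 4091 with at least 153 bases did (median -0.41). These limits were taken from the 10 genes after their values were seen. Within its own length class *PDCD4* was still low, below all but 2.7% of the genes with a 5′ UTR of at least 153 bases, while in the short class 21.3% of genes were lower than *EIF4H*, 53.6% lower than *EIF4A1*, 72.5% lower than *EIF4E*, 95.4% lower than *EIF4A2* and 99.2% lower than *EIF4B*.

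**Figure D4:**
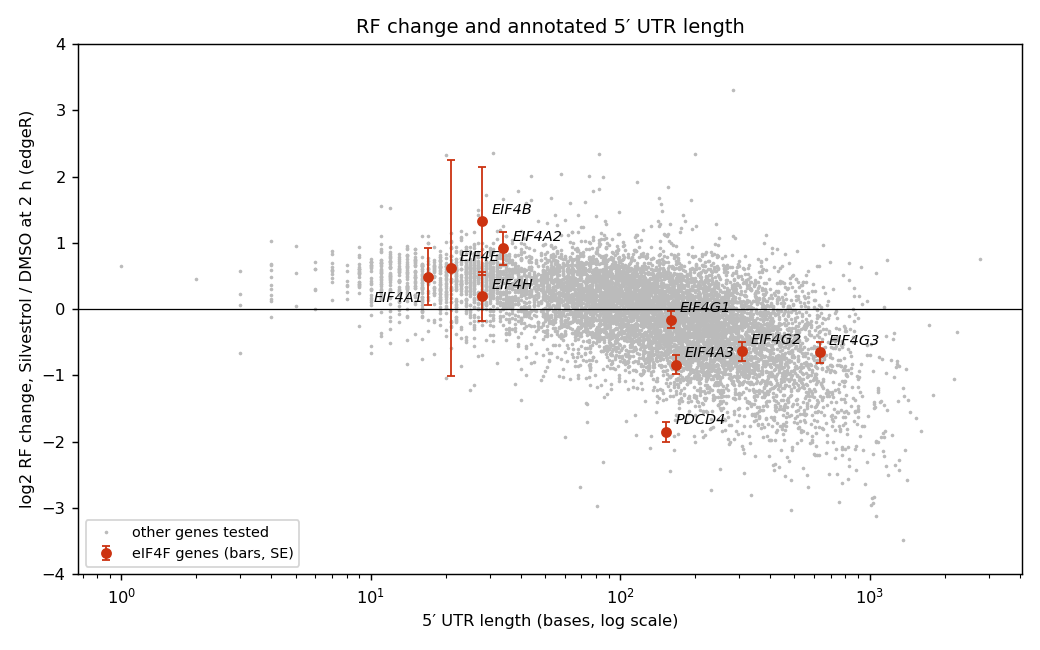
Fitted log2 RF change at 2 h (edgeR, Silvestrol over DMSO) against annotated 5′ UTR length in bases on a log axis, with 9087 tested genes in grey and the 10 eIF4F genes in red with their standard errors. The 5 genes with 17 to 34 bases lie above 0 and the 5 with 153 to 631 bases lie below 0, *PDCD4* the lowest. In passage 4 alone the RPKM ratios of *EIF4A1*, *EIF4E* (1 to 7 reads a library) and *EIF4H* were below 0.

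The 5 genes with short 5′ UTRs are also the 5 with 85.3 to 100% of their 30-base windows matching elsewhere and with a short counted length. Among these 10 genes the features therefore cannot be told apart. Over all genes with a 5′ UTR of at most 34 bases, the RF change was above 0 for 89.9% of 1044 genes counted over at least 50% of their coding length and for 83.5% of 85 genes counted over less. Over genes with at least 153 bases it was above 0 for 23.8% of 3946 and for 39.3% of 145, and over all genes with an annotated length for 47.9% of 8522 and for 61.8% of 566. GC content of the 5′ UTR ranged from 41.2% (*EIF4A1*) to 73.7% (*EIF4A3*), and 4 repeats of CGG in a row, searched on the transcript's strand, were found in *EIF4G3* only, 1 of the 10 genes, against 4.8% of tested genes.

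Over the 7 RF libraries, the genes with the profile most like *EIF4A1* in log2 RPKM were *SNAPIN* (Pearson r = 0.97), *AAGAB* (0.962) and *SLC25A13* (0.957), and those most like *EIF4A2* were *NPEPPS* (0.984), *TAF11* (0.97) and *NASP* (0.97), out of 7014 genes with a mean of at least 10 RPKM. These correlations describe 7 libraries that share 1 cell line, of which 3 were Silvestrol-treated and the passage 4 pair was shallow. Of the eIF4A paralogs themselves, neither was among the other's 3 nearest.

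Of 33 genes that work beside eIF4F, 2 were called lower and 2 higher at 2 h without the block (edgeR quasi-likelihood test, adjusted over all genes), and 7 and 10 with it, with a median log2 RF change of 0.12. Of all genes tested 7.52% and 2.1% were called lower and higher without the block, and 28.0% and 24.6% with it. Lower were the poly(A)-binding protein *PABPC4* (86.6 and 79.5 RPKM with DMSO, 25.0 and 26.5 with Silvestrol, log2 change -1.46 ± 0.13 SE, adjusted p = 0.016) and *PAIP2*, which takes poly(A)-binding protein off the tail (378 and 431 RPKM against 146 and 132, -1.35 ± 0.15 SE, adjusted p = 0.018). Higher were *EIF3I*, a subunit of the eIF3 complex that eIF4G contacts (608 and 519 RPKM against 882 and 726, 0.65 ± 0.13 SE, adjusted p = 0.041), and *CASC3*, which joins EIF4A3 in the exon junction complex (37.4 and 34.0 RPKM against 58.0 and 58.8, 0.83 ± 0.14 SE, adjusted p = 0.033). *CASC3* and *EIF4A3* thus changed in opposite directions. Among the 13 eIF3 subunits, 0 were called lower and 1 higher without the block, 1 lower and 7 higher with it, beside the same shares of all genes, and their median log2 change was 0.29. *EIF4EBP2*, which sequesters eIF4E, had 24.6 and 31.6 RPKM with DMSO and 6.1 and 6.33 with Silvestrol, a log2 change of -1.67 ± 0.38 that did not pass without the block (adjusted p = 0.054, and 8.6e-06 with it). The largest change of the 33 was that of the eIF3 subunit *EIF3C* (2.62 and 0.93 RPKM against 10.6 and 3.74, 1.99 ± 0.59 SE), counted over 7.7% of its coding length with as few as 5 reads in a library, and it did not pass without the block (adjusted p = 0.092, and 0.0018 with it, edgeR). The other genes called with the block alone were *EIF4ENIF1*, *MKNK1*, *EIF3B* and *DDX3X*, lower, and *CYFIP1*, *RPS6KB2*, *EIF3D*, *EIF3E*, *EIF3K*, *EIF3L* and *EIF3M*, higher.

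In the INK128 experiment the same genes were measured in FPKM (fragments scaled to transcript length and library size), 1 library a group and with no read counts, so depth is unknown and no test was made. The order of the genes differed from the Silvestrol table, which was normalized separately. *EIF4A1* had the highest RF level of the 10 genes (674 FPKM with DMSO), where it ranked 4 in the passage 3 DMSO library of the Silvestrol experiment, *EIF4H* ranked 2 (113 FPKM) against 7, and *EIF4A3* ranked 3 (106 FPKM) against 1. *EIF4B* stood at 61.5 FPKM and *EIF4E* at 19.1 FPKM. How this table treated reads that match pseudogenes is not given in the sources used here.

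The largest difference was that of *EIF4B*, at 61.5 FPKM in RFs with DMSO and 29.0 with INK128, a log2 change of -1.09. *PDCD4* lay below the minimum for total RNA, so its values are given as read and only 9 of the 10 genes were among the 7086 used. Of these 9, *EIF4B* was the 1 gene lower by at least 1.5-fold, beside 3.47% of all genes used, and 0 were higher, beside 3.97%. RFs of the other 9 genes differed by log2 values of -0.23 (*EIF4A2*, 93.0 to 79.1 FPKM) to 0.20 (*PDCD4*, 16.8 to 19.2 FPKM). *EIF4A1* went from 674 to 615 FPKM, *EIF4A3* from 106 to 111, *EIF4E* from 19.1 to 20.1, *EIF4G1* from 97.7 to 105, *EIF4G2* from 93.1 to 102, *EIF4G3* from 8.07 to 8.94 and *EIF4H* from 113.3 to 112.6.

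**Figure D5:**
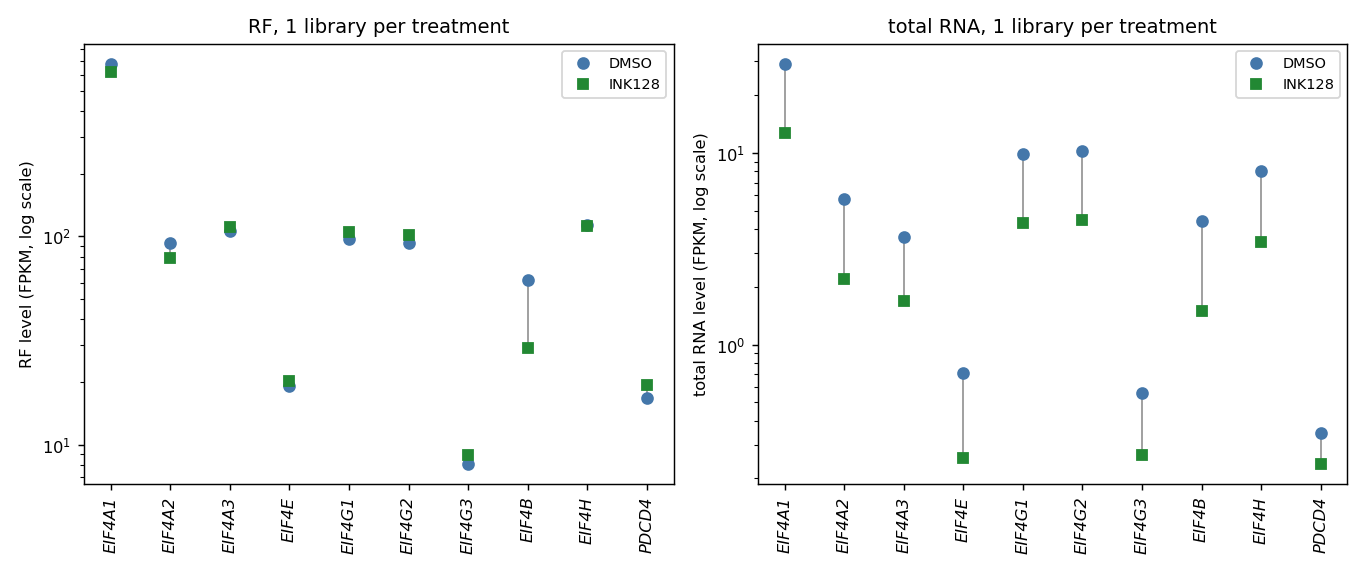
Level of the 10 genes with DMSO (blue circles) and INK128 (green squares) in RFs and in total RNA, in FPKM on log axes, 1 library each. In RFs *EIF4B* shows the widest gap, from 61.5 to 29.0 FPKM, and in total RNA all 10 genes are lower with INK128.

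Total RNA was lower with INK128 for all 10 genes, but so was the median of all genes, by a log2 change of -1.17. Relative to that median the 10 genes differed by -0.40 (*EIF4B*, 4.42 to 1.49 FPKM) to 0.63 (*PDCD4*, 0.345 to 0.238 FPKM). *EIF4A1* total RNA went from 29.1 to 12.7 FPKM, and *EIF4E*, *EIF4G3* and *PDCD4* stood under 1 FPKM in both libraries. As a z-score of the TE change over all genes, 0 of the 9 genes used passed -1.5 (5.52% of all genes) or 1.5 (1.72%). *EIF4B* was the lowest at -1.26, and *PDCD4*, with little total RNA, was at -0.76. *EIF4E* was the highest at 0.86, but with a pseudocount of 0.5 FPKM it stood at 0.16, below *EIF4G2* (1.29) and *EIF4G1* (1.25).

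The first transcribed bases of *EIF4B* are shown beside those of both initiation helicases and of *PDCD4*, because mRNAs that begin with C and a run of pyrimidines (5′ terminal oligopyrimidine mRNAs) are a known class under mTOR control. Each line gives 10 bases before the RefSeq start and the 20 from it, on GRCh38.p14, with the first 5 transcribed bases in capitals. The sites are chr12:53006446-53006475 (*EIF4B*), chr3:186783567-186783596 (*EIF4A2*), chr17:7572815-7572844 (*EIF4A1*) and chr10:110871918-110871947 (*PDCD4*), all on the plus strand.
EIF4B: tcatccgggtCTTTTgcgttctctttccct
EIF4A2: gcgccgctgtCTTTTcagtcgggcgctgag
EIF4A1: ggcactccgcCCTAGtttctaaggatcatg
PDCD4: gagaagggccAGAGActctccgaggcggcg
A C at the start followed by 4 bases that are each C or T was present in *EIF4B* and *EIF4A2* and at none of the RefSeq starts of the other 8 genes, and it was present at 4.07% of 35116 RefSeq starts. The search covered only the sense strand at the annotated start base. *EIF4B* and *EIF4A2* were also the lowest of the 10 genes in the INK128 RF change, at -1.09 and -0.23, below all but 1.7% and 13.1% of genes. In the TE z-score, which takes the total RNA into account, *EIF4A2* was at 0.06, with 45.1% of genes lower, and *EIF4B* at -1.26, with 6.8% lower.

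INK128 values were compared for 30 of the 33 genes beside eIF4F, symbols with more than 1 line being left out. Of these 30, 7 were lower in RFs by at least 1.5-fold and 1 was higher, with a median log2 change of -0.27, beside 0.01 over all genes. Of the 25 above the minimum levels 6 were lower and 1 higher, beside 3.47% and 3.97% of all genes used. The lower genes were *PABPC1* (-2.24), *EIF4EBP2* (-1.24), *EIF3L* (-1.06), *EIF3F* (-0.92), *EIF3H* (-0.89), *EIF4E3* (-0.63, below the minimum levels) and *EIF3E* (-0.61), and *RPS6KB2*, a kinase under mTOR, was higher (0.6). The Silvestrol values set beside these are edgeR fits over 2 passages, while the INK128 values are FPKM ratios of 1 library each. *EIF4EBP2* had log2 RF changes of -1.67 with Silvestrol (as few as 7 reads in a library at 2 h) and -1.24 with INK128. *PABPC4* had changes of -1.46 and -0.5, the latter short of 1.5-fold. Both genes were below 0 with each drug. *EIF3L* had changes of 0.6 (edgeR, adjusted p = 0.056 without the passage block and 8.1e-08 under it) and -1.06, *PDCD4* of -1.85 and 0.2, *EIF4A3* of -0.84 and 0.07, and *EIF4B* of 1.33 (9 to 20 reads) and -1.09. The difference between the drugs was not tested, since INK128 had 1 library.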

How the data were processed

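Both deposited tables of RFs and mRNA in MDA-MB-231 cells were used. For the Silvestrol experiment the authors aligned reads with Bowtie (at most 2 mismatches) to hg19 and UCSC KnownGene transcripts. The deposited counts are of uniquely mapped reads, with RPKM values beside them. For INK128 the authors deposited FPKM values without counts. The deposited TE ratios, log2 changes and scores are the authors' comparisons and were not used. Columns of per-sample values left unused numbered 0.

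Of 38897 lines, 25758 were distinct, and each symbol was represented by its entry of highest RF RPKM on average at 2 h. Genes were tested above mean limits of 1 RPKM in RFs and 0.3 RPKM in mRNA (INK128: the same limits in FPKM, all values above 0, which *PDCD4* missed in total RNA). INK128 symbols with more than 1 line were left out. edgeR 4.0.16 in R 4.3.3 (TMM, glmQLFit, glmQLFTest) tested the 4 RF libraries at 2 h, and TE as the interaction of assay and treatment over 6 libraries, with Benjamini-Hochberg adjustment over all genes and a threshold of 0.05. DESeq2 1.42.0, other filters and scalings, left-out libraries and an offset for counted length were alternatives. The tests were tested on simulated data that held no passage effect, so the simulation does not show how either fit handles the passage.

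Replicates 1 and 2 are passages 3 and 4 in the labels, and deviations of the same passage from their group means correlated with r = 0.72 (10588 genes), so the passages pair the libraries. The tests given first leave the passage out, and fits with it as a block are given beside each result whose call they change. The block fit rests on few residual degrees of freedom. The labels name the passage 4 libraries biological replicates. Coding sequences and 5′ UTRs came from GENCODE 44 MANE Select transcripts on GRCh37, copies from blastn 2.17.0 (at least 50% of the coding sequence and 80% identity), and start sites from RefSeq on GRCh38.p14, which matched all 10 genes. Intervals cover counting error only.

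The 10 genes, the 33 genes that work beside eIF4F, the line's markers and the tests were chosen with earlier results of these data known. All 10 genes are named, together with neighbouring genes past a test or with the largest change, and the 3 genes most like *EIF4A1* and *EIF4A2* in RFs.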

Additional observations from a re-analysis of the deposited data

Results flagged for a closer look

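*EIF4B* had log2 RF changes with Silvestrol of -0.6 at 1 h, and of 1.62 and 0.58 at 2 h in passages 3 and 4, so its RF level was lower than DMSO at 1 h and higher in both cultures at 2 h. The difference between the times was not tested, and 1 library stood for each treatment at 1 h. The libraries held 9 to 20 *EIF4B* reads, and the 95% exact interval of the 1 h ratio (0.286 to 1.45, counting error only) included 1. Untreated cells lay below the same 1 h DMSO library by a log2 value of -0.7. The 1 h Silvestrol value was -0.41 with a pseudocount of 0.5 RPKM and -0.27 with reads per library total.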

How the results depend on the processing

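The direction of the RF change at 2 h of *EIF4A2*, *EIF4A3*, *EIF4G1*, *EIF4G2*, *EIF4G3*, *EIF4B* and *PDCD4* was kept under every alternative run. With 1 RF library left out, that of *EIF4A1* ranged from -0.01 (without the passage 3 DMSO library) to 1.19, that of *EIF4H* from -0.22 (without the same library) to 0.7, and that of *EIF4E* from -0.9 (without the same library, and -0.69 without the passage 4 Silvestrol library) to 2.79. TE changes ranged from -2.28 to 1.42 for *EIF4E* (1.42 without the passage 4 DMSO library and 0.71 without the passage 3 Silvestrol library) and from -0.68 to 0.23 (without the passage 4 DMSO library) for *EIF4H*. The cause was not tested.

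With the passage as a replicate block, 4 genes were called lower and 3 higher in RFs (main 2 and 0), and 4 lower and 2 higher in TE (main 0 and 0). With the block and the counted-length offset together, an alternative chosen after seeing the data, the numbers were 4 and 3 in RFs, beside 28.2% and 23.3% of all genes, and 4 and 3 in TE, beside 23.0% and 22.6%. DESeq2, no minimum values and the counted-length offset each called 1 gene (*EIF4A2*) higher in RFs, beside 5.13%, 2.05% and 2.38% of all genes. These and the fits with all 7 RF libraries, library totals without TMM or a minimum of 5 RPKM also called *EIF4G2* lower (adjusted p of 0.038 to 0.048 in these 6). Each of these 6 fits called 3 genes lower, beside 7.03 to 10.4% of all genes. In TE, DESeq2 and no minimum values each called 1 (*PDCD4*) lower, beside 4.88% and 0.959%. Leaving out 1 RF library gave 0 to 3 genes lower and 0 to 2 higher in RFs, and 0 to 1 lower and 0 higher in TE, beside 0.0 to 8.66% and 0.0 to 2.35% of all genes in RFs and 0.0 to 7.49% and 0.0 to 4.69% in TE. Without either Silvestrol library at 2 h, edgeR called 0 of the 10 and 0.0% of all genes in RFs. In such fits the lone sample is assumed to vary like the other group. *EIF4B* and *EIF4E* fell below a minimum of 5 RPKM, and DESeq2 gave no adjusted p for them, nor for *EIF4H* in TE.

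With passage 4 RFs, 0 genes passed the upper z-score threshold in place of 1. Against DMSO at 1 h, untreated cells had 2 of the 10 genes lower (*EIF4E* and *EIF4B*) and 1 higher (*EIF4A1*) by at least 1.5-fold, beside 2.37% and 1.05% of all genes, in place of 1 and 0. Taken from the median of all genes, INK128 total RNA was lower for 0 and higher for 1 gene (*PDCD4*) in place of 9 and 0. Of the 7086 genes used, which leave out *PDCD4*, 2.4% and 7.95% were lower and higher, in place of 92.0% and 0.268%. *EIF4A3* stood at 0.06 and *EIF4G3* at 0.09. TE was lower for 1 gene (*EIF4B*) and higher for 0, in place of 0 and 9, the 9 including *PDCD4*. The shares of genes used were 8.59% and 3.26% in place of 1.07% and 91.7%. In TE *EIF4A1* stood at -0.12, *EIF4A2* at -0.04, *EIF4A3* at 0.00 and *PDCD4* at -0.45. Depth limits *EIF4E* (1 to 7 RF reads) and *EIF4B* (9 to 20) most.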
